A study of Homo sapiens with 2 samples.

Results

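The 56 genes described here encode the machinery that licenses replication origins, builds and runs the replication fork, and packs the new DNA into chromatin. They were listed by name and known function, with earlier results of these data known, and each of the 56 symbols matched 1 of the 25343 gene entries measured. The RNA came from Huh7, an established human liver cancer line of well differentiated hepatocyte origin, kept for 6 days in low glucose medium (0.45 g/L) or in high glucose medium (4.5 g/L). Both media were given to cells seeded at 500000 per well, grown in DMEM with serum and passaged when nearly confluent, with only live cells seeded back. Each medium is represented by 1 library, so no difference below has a replicate check and no p-value is given. The values are TPM, a measure of abundance per unit of transcript length, scaled so that every library adds up to 1000000.

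Replication begins in G1, when the origin recognition complex (ORC), CDC6 and CDT1 load the MCM2 to MCM7 ring onto DNA, a step called licensing. In S phase the CDC7-DBF4 kinase, MCM10, CDC45 and the GINS complex turn the loaded ring into an active helicase, and polymerases, the sliding clamp PCNA and its loader follow behind it. Histone chaperones and the factors that copy DNA methylation then restore chromatin on the daughter strands. Many of these genes are known targets of E2F transcription factors and are transcribed mainly as cells enter S phase, so in growing cultures their mRNA levels are commonly used as markers of proliferation.

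Nearly the whole set was lower in low glucose. Of the 56 genes, 53 had a lower value in the low glucose library and 3 a higher one. Differences are given throughout as log2(TPM + 1) in low glucose minus log2(TPM + 1) in high glucose, a scale that slightly understates changes of low genes. The median difference was -0.40 over the 56 genes, against 0.05 over the 13745 genes with a mean of at least 1 TPM, which are the genes compared. Among genes compared, 45.3% lay below 0; among the 9457 with a mean of at least 10 TPM, a level that all 56 members reach, 50.9% did. A total of 6 of the 56 genes were at least 2-fold lower (a difference of at most -1), where 1.1% of all genes compared met that rule and 1.09% of those of at least 10 TPM. They were PCNA, UHRF1, ASF1B, FEN1, MCM6 and MCM10. A looser rule of 1.5-fold lower was met by 20 of the 56 genes, against 6.07% of all genes compared and 6.5% of those of at least 10 TPM. No member was 1.5-fold higher, against 13.0% of all genes compared and 10.9% of those of at least 10 TPM, and thus none was 2-fold higher (3.65% and 3.1%). With trimmed-mean scaling, which made the calls over all genes more even in direction (1230 lower and 1376 higher by 1.5-fold, in place of 835 and 1786), 21 members were 1.5-fold lower. In bulk RNA, fewer cells in S phase and less of these mRNAs per cell cannot be told apart.

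All 56 genes were well above the level needed for comparison, from 12.1 to 423 TPM as the mean of both libraries. Summed over the set, they made up 3315 TPM in low glucose and 5009.9 TPM in high glucose, or 0.332% and 0.501% of the library. PCNA alone accounted for 23.7% of the difference between those sums and the 6 MCM2 to MCM7 genes for 31.0%. The order of the genes by level was largely kept, with a Spearman correlation of 0.932 between the low and the high glucose library across the 56 genes, which describes these libraries only. Over all genes compared, abundant genes tended to lower differences. With the median of genes of like level subtracted, the median of the set was -0.38.

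**Figure D1:**
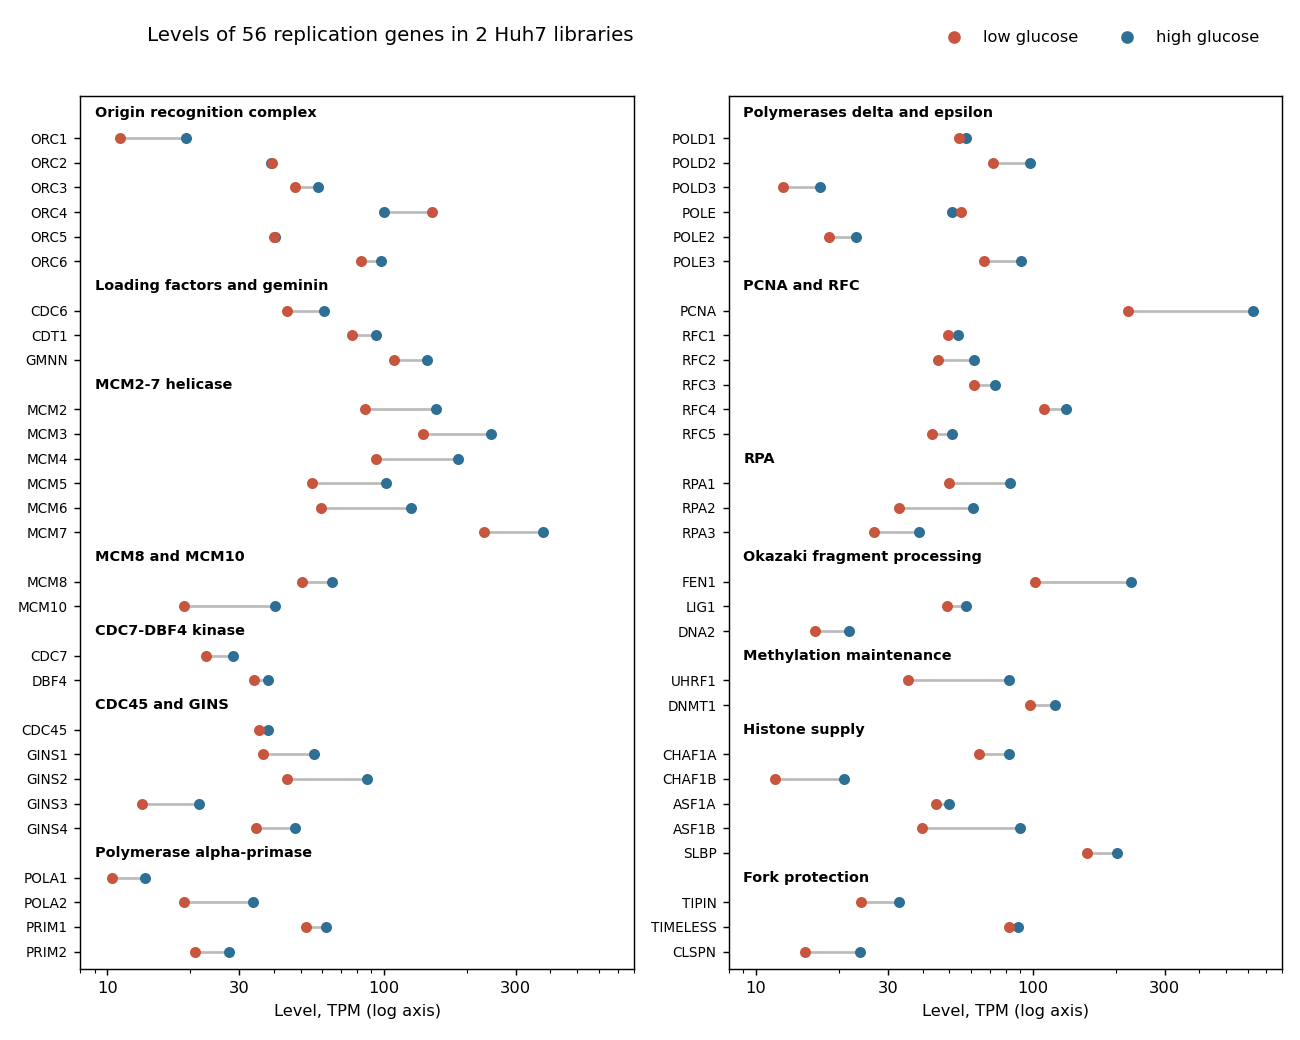
Level in TPM, on a log axis, of each of the 56 genes in the low glucose library (red) and the high glucose library (blue), grouped by complex. The red point lies left of the blue one for 53 genes, with the longest line at PCNA (222 TPM in low and 624 TPM in high glucose) and the reverse order at ORC4.

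**Figure D2:**
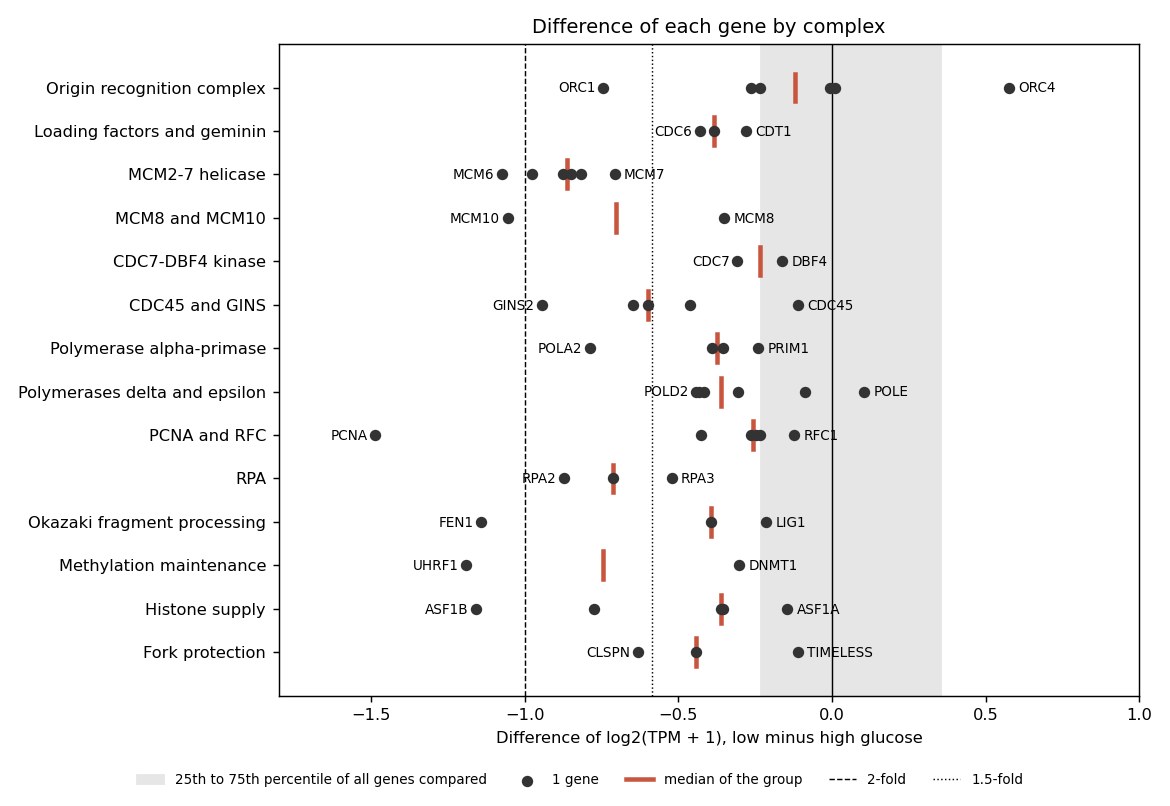
Low minus high glucose difference of log2(TPM + 1) for every gene (points) in the 14 groups, with each group's median as a red bar, the 25th to 75th percentile of all genes compared as a grey band, and lines at 1.5-fold and 2-fold lower. All 14 medians lie left of 0, the MCM2 to MCM7 genes lie close together, and the ORC genes are spread from -0.74 to 0.57.

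The libraries carried the identity their labels give. All 10 hepatocyte and hepatoma markers examined were expressed, among them AFP (16441 TPM in low and 20859 TPM in high glucose), and their sum was 33897 TPM in low and 40088 TPM in high glucose. They did not move together, with 7 lower and 3 higher in low glucose. TTR (682 TPM in low and 1351 TPM in high glucose) and FGB (927 and 617 TPM) lay at the ends. TXNIP, a gene known to be induced by glucose, stood at 0.63 TPM in low and 31.6 TPM in high glucose. Fibroblast markers summed to 40.3 TPM in low and 29.98 TPM in high glucose over 5 genes, with THY1 listed at 0 in both. The other 4 were higher in low glucose, most of all COL1A1 (4.03 TPM in low and 1.06 TPM in high glucose). Endothelial markers summed to 2.19 TPM in low and 2.14 TPM in high glucose over 4 genes. The 5 leukocyte markers summed to 237 TPM in low and 572 TPM in high glucose, and they did not move together. LYZ, which encodes lysozyme, stood at 198 TPM in low and 550.3 TPM in high glucose, while CD68, a lysosomal protein of macrophages, went the other way at 39.3 TPM in low and 20.4 TPM in high glucose (0.91). The pan-leukocyte gene PTPRC stood at 0.5 TPM in low and 0.83 TPM in high glucose. The part of these genes in the differences below was not tested.

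The licensing genes were split between an ORC whose subunits differed in direction and a clearly lower helicase. In ORC, the complex that marks origins, the summed level was 371 TPM in low and 354 TPM in high glucose. This sum leans on ORC4, the most abundant of the 6 subunits in both media, which was higher in low glucose. The median difference of the 6 subunits was -0.12. ORC1, the subunit known for its cell cycle control in human cells, stood at 11.1 TPM in low and 19.3 TPM in high glucose, a difference of -0.74, and it alone of the 6 was 1.5-fold lower. ORC4 (chromosome 2, 148687966 to 148779173; gene intervals are those of the authors' hg19 entries), another of the subunits of the ring that holds DNA, went the other way at 149.8 TPM in low and 100.2 TPM in high glucose. Its difference of 0.57 was the highest of all 56 genes and just short of 1.5-fold. With the median of genes of like level subtracted it was 0.74, past that line. ORC4's interval overlaps those of ACVR2A and MBD5 at its ends by 431 and 594 bases, and both neighbours were far lower in level (25.9 and 5.03 TPM in low glucose, 23.5 and 4.27 TPM in high glucose). ORC2 (39.3 TPM in low and 39.1 TPM in high glucose) and ORC5 (40.1 and 40.3 TPM) were level, with differences of 0.01 and -0.01 whose sign turned with the scaling. ORC3 (-0.26) and ORC6 (-0.23), the subunit least tightly bound to the others, lay between these and ORC1.

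The loading factors and their inhibitor were lower by small and similar amounts. CDC6, the ATPase that joins ORC to the ring, stood at 44.8 TPM in low and 60.8 TPM in high glucose (-0.43). CDT1, which brings the ring to ORC, stood at 76.9 TPM in low and 93.7 TPM in high glucose (-0.28). Geminin (GMNN), the protein that binds CDT1 and blocks relicensing, stood at 109 TPM in low and 143 TPM in high glucose (-0.38). CDT1 and its inhibitor therefore kept nearly the same proportion, at 0.704 TPM of CDT1 per TPM of GMNN in low glucose and 0.655 in high glucose. None of the 3 was 1.5-fold lower.

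The MCM2 to MCM7 genes, whose products form the hexameric ring of the helicase, were lower together. All 6 were at least 1.5-fold lower, the median difference was -0.86, and the distance between the lowest and the highest of the 6 was 0.37. Their summed level was 661 TPM in low and 1187 TPM in high glucose. MCM6 (chromosome 2, 136597196 to 136634047) stood at 59.2 TPM in low and 125.8 TPM in high glucose, a difference of -1.07. No other gene of the 6 was past 2-fold, and with the median of genes of like level subtracted it missed that line at -0.95. MCM4 came next, at 93.8 TPM in low and 185 TPM in high glucose. Its difference of -0.98 made it the gene nearest to the 2-fold line from outside, and it passed the line with median-of-ratios scaling (-1.06) and trimmed-mean scaling (-1.07). MCM5 (55.0 TPM in low and 101.8 TPM in high glucose, -0.88), MCM2 (85.5 and 154.8 TPM, -0.85) and MCM3 (138 and 245 TPM, -0.82) were nearly alike in difference although not in level. MCM7 was the most abundant of the ring in both media, at 229 TPM in low and 375 TPM in high glucose, and had the smallest difference of the 6 (-0.71). The ring's genes thus held the same order of level in both libraries, MCM7 highest and MCM5 lowest. MCM7 stood at 4.17 times MCM5 in low and 3.68 times in high glucose, although the ring holds its subunits in equal number.

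Of the MCM proteins outside the ring, MCM10 and MCM8 differed from each other. MCM10 (chromosome 10, 13203554 to 13253104), which helps to switch the loaded helicase on, stood at 18.98 TPM in low and 40.5 TPM in high glucose, a difference of -1.06. It was the gene nearest to the 2-fold line from inside and missed it with a pseudocount of 5 (-0.92). MCM8, which works with MCM9 in repair by homologous recombination, stood at 50.8 TPM in low and 65.0 TPM in high glucose (-0.35).

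Among the factors that fire origins, the kinase genes were little lower and the GINS genes more so. CDC7, the catalytic subunit of the kinase that phosphorylates MCM proteins, stood at 22.8 TPM in low and 28.5 TPM in high glucose (-0.31). DBF4, its activating subunit, stood at 33.9 TPM in low and 37.98 TPM in high glucose (-0.16). CDC45, which with GINS completes the active helicase, stood at 35.2 TPM in low and 38.1 TPM in high glucose (-0.11), a value inside the middle of the distribution of all genes. GINS2 stood at 44.7 TPM in low and 86.9 TPM in high glucose (-0.94), and it passed 2-fold with median-of-ratios scaling (-1.03) and trimmed-mean scaling (-1.03). GINS3 (13.3 TPM in low and 21.5 TPM in high glucose, -0.65) and GINS1 (36.5 and 55.8 TPM, -0.60) were also past 1.5-fold, GINS1 being the gene nearest to that line from inside. GINS4 (34.4 TPM in low and 47.7 TPM in high glucose, -0.46) was not. The 4 GINS genes encode a complex of fixed composition, and their differences spanned 0.48. GINS2 stood at 1.27 TPM per TPM of CDC45 in low glucose and at 2.28 in high glucose.

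The replicative polymerases were lower by small amounts, apart from POLE and POLD1, which were nearly level, and POLA2, which was 1.5-fold lower. POLE, the catalytic subunit of the leading strand polymerase epsilon, stood at 55.1 TPM in low and 51.2 TPM in high glucose. This difference of 0.10 remained above 0 under every alternative tried that kept the gene (0.01 to 0.18). POLD1, the catalytic subunit of polymerase delta, which copies the lagging strand, stood at 53.98 TPM in low and 57.4 TPM in high glucose (-0.09). PRIM1, the catalytic primase subunit, stood at 52.1 TPM in low and 61.8 TPM in high glucose (-0.24), and POLA1, the catalytic subunit of polymerase alpha, at 10.5 and 13.7 TPM (-0.36). The 4 catalytic subunits had a median of -0.16, and the 6 accessory subunits among the members a median of -0.42. This split was made after the values were seen, and it leaves out accessory subunits that are no members. Of these, POLD4 went the other way at 56.4 TPM in low and 46.0 TPM in high glucose (0.29). POLE4 stood at 45.6 TPM in low and 58.2 TPM in high glucose (-0.34). Of the 6 accessory subunits among the members, POLA2 of polymerase alpha was 1.5-fold lower, at 19.0 TPM in low and 33.6 TPM in high glucose (-0.79). POLD2 (71.6 TPM in low and 97.6 TPM in high glucose, -0.44), POLE3 (-0.43), POLD3 (-0.42), PRIM2 (-0.39) and POLE2 (-0.30) were not. POLE3 is a histone-fold protein that polymerase epsilon shares with chromatin remodellers.

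PCNA, the ring that tethers polymerases to DNA and to which many other replication proteins bind, had the largest difference of the 56 genes. It (chromosome 20, 5095599 to 5107268) stood at 222 TPM in low and 624 TPM in high glucose, a difference of -1.49. Only 0.196% of all genes compared had a difference as low or lower, and the range over all alternatives that kept the gene was -1.58 to -1.35. PCNA was the most abundant of the 56 genes in high glucose, while in low glucose MCM7 was slightly above it. The antisense entry within PCNA stood at 0.61 TPM in low and 0.77 TPM in high glucose, and the pseudogene PCNAP1 was listed at 0 in both. The 5 genes of its loader, RFC, did not share this size: their median was -0.25, and none was 1.5-fold lower. RFC4, the most abundant, stood at 109.6 TPM in low and 131.8 TPM in high glucose (-0.26). RFC2 was the lowest in difference (45.4 TPM in low and 61.3 TPM in high glucose, -0.43) and RFC1, the large subunit, the highest (49.4 and 53.9 TPM, -0.12). PCNA stood at 4.49 times RFC1 in low glucose and at 11.6 times in high glucose.

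RPA, the trimer that coats single-stranded DNA, was lower in all 3 subunits, with a median of -0.71. RPA2 stood at 32.9 TPM in low and 61.0 TPM in high glucose (-0.87), and RPA1, the large DNA-binding subunit, at 50.01 and 82.6 TPM (-0.71). RPA3, the smallest subunit, stood at 26.6 TPM in low and 38.7 TPM in high glucose (-0.52) and was the gene nearest to the 1.5-fold line from outside. Its interval overlaps that of another expressed entry, RPA3OS (9.77 TPM in low and 13.2 TPM in high glucose), and whether the libraries keep strand is not given in the sources used here.

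On the lagging strand, FEN1 stood apart from the enzymes that act beside it. FEN1 (chromosome 11, 61560109 to 61564714), the nuclease that removes flaps from Okazaki fragments, stood at 102 TPM in low and 227 TPM in high glucose. Its difference of -1.14 was past 2-fold, and it missed that line with the median of genes of like level subtracted (-0.98). LIG1, the ligase that seals the fragments, stood at 49.2 TPM in low and 57.2 TPM in high glucose (-0.21). DNA2, a nuclease and helicase for long flaps, stood at 16.3 TPM in low and 21.7 TPM in high glucose (-0.39). FEN1 stood at 2.08 TPM per TPM of LIG1 in low glucose and at 3.97 in high glucose.

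The chromatin genes held large differences next to small ones, mostly between partners. UHRF1 (chromosome 19, 4903092 to 4962165), which recognises hemimethylated DNA behind the fork and recruits DNMT1, stood at 35.5 TPM in low and 82.2 TPM in high glucose (-1.19). DNMT1, the methyltransferase that copies the pattern, stood at 97.7 TPM in low and 120.7 TPM in high glucose (-0.30). ASF1B (chromosome 19, 14230321 to 14247440), the histone chaperone of the ASF1 pair linked to proliferation, stood at 39.8 TPM in low and 90.0 TPM in high glucose (-1.16). Its paralog ASF1A stood at 44.9 TPM in low and 49.8 TPM in high glucose (-0.14), so that the order of the paralogs turned over: ASF1B was 0.887 of ASF1A in low glucose and 1.81 times ASF1A in high glucose. CAF-1, the complex that places new histones H3 and H4 on replicated DNA, was lower in both of its genes among the members. CHAF1B stood at 11.7 TPM in low and 20.8 TPM in high glucose (-0.77) and CHAF1A at 64.0 and 82.5 TPM (-0.36). SLBP, which binds the stem loop of histone mRNAs, stood at 158 TPM in low and 202 TPM in high glucose (-0.35).

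The fork protection genes were lower by modest amounts. CLSPN (claspin), which links stalled forks to the checkpoint kinase CHK1, stood at 15.0 TPM in low and 23.8 TPM in high glucose (-0.63), past 1.5-fold. TIPIN stood at 23.9 TPM in low and 32.9 TPM in high glucose (-0.44). TIMELESS, its binding partner at the fork, stood at 81.9 TPM in low and 88.5 TPM in high glucose (-0.11) and was nearly level.

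The set was also divided into the 20 members found on a common S phase marker list from single-cell work and the other 36. This list, like the members, was chosen with earlier results of these data known. Of all genes compared, 45.3% lay below 0 and 6.07% were 1.5-fold lower. All 20 S phase members were lower in low glucose, with a median of -0.70, and 11 were 1.5-fold lower. Of the other 36 members, 33 were lower, with a median of -0.31, and 9 were 1.5-fold lower. The 2 groups overlapped widely. On the S phase list the lowest were PCNA and UHRF1 and the highest CDC45 and PRIM1. Off the list the lowest were ASF1B and MCM10 and the highest ORC4 and POLE. With the median of genes of like level subtracted, the medians were -0.71 for the 20 and -0.26 for the 36.

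**Figure D3:**
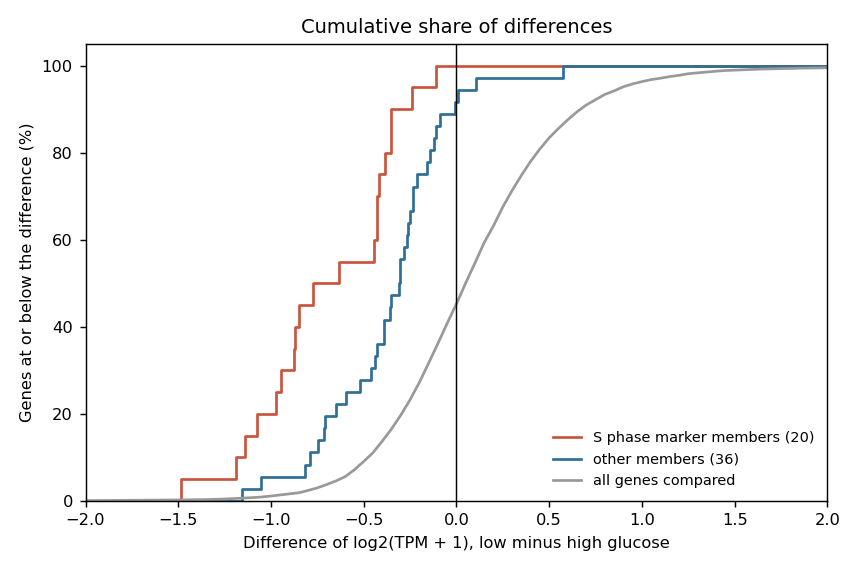
Percentage of genes at or below each low minus high glucose difference of log2(TPM + 1), for the 20 S phase marker members (red), the other 36 members (blue) and all genes compared (grey). Both member curves lie left of the grey one, and the red one leads, with medians of -0.70 and -0.31 against 0.05.

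**Figure D4:**
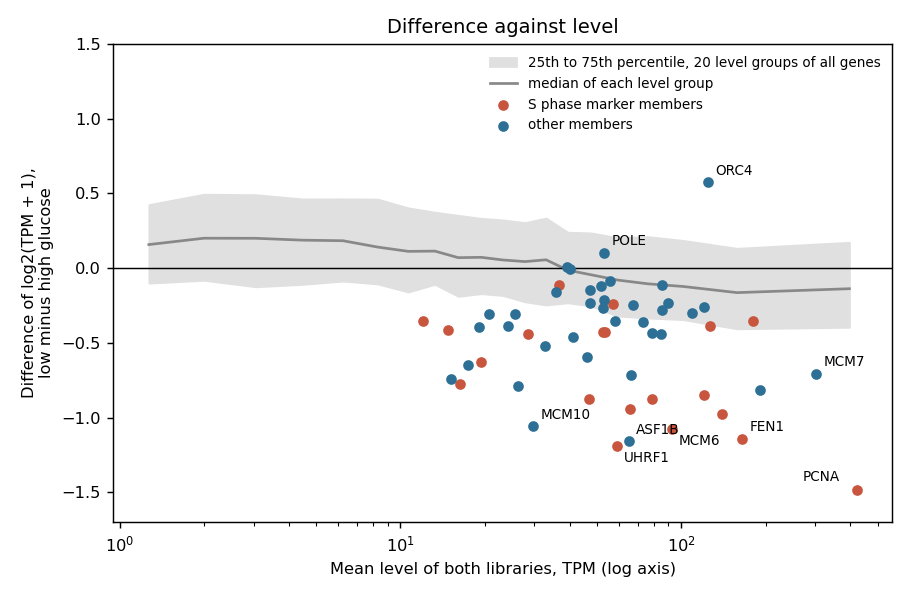
Low minus high glucose difference of log2(TPM + 1) against mean TPM on a log axis for the S phase marker members (red) and other members (blue), with the median and the 25th to 75th percentile of all genes in 20 groups by level (grey). Of the 56 members, 36 lie below the 25th percentile of their own level group and ORC4 alone above the 75th.

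Other genes of the pathway were also mostly lower. Of 38 other replication genes (accessory subunits, origin firing factors, topoisomerases and further histone chaperones), 29 lay below 0, where 45.3% of all genes compared did. Their median was -0.24. A total of 2 were 1.5-fold lower and none 1.5-fold higher, which as a share (5.26%) is near the 6.07% of all genes compared. These were DTL, the CDT1-degrading ubiquitin ligase adaptor (17.6 TPM in low and 30.1 TPM in high glucose), and PARP1, a DNA damage sensor (129.99 and 212 TPM). At the other end stood CHTF18, of an alternative clamp loader (66.8 TPM in low and 50.4 TPM in high glucose, 0.40), and CABIN1, of a histone chaperone complex (36.2 and 28.1 TPM, 0.35). All 10 genes of deoxynucleotide supply were lower (median -0.61), 5 of them by 1.5-fold, against 45.3% and 6.07% of all genes compared. TK1, thymidine kinase, stood at 60.96 TPM in low and 127 TPM in high glucose. RRM2, a subunit of ribonucleotide reductase, stood at 108.5 TPM in low and 203 TPM in high glucose. The highest of the 10 were DCK, deoxycytidine kinase, at 25 TPM in low and 29.1 TPM in high glucose (-0.21), and RRM2B, another subunit of the reductase, at 11.6 and 13.9 TPM (-0.25).

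Among 18 regulators of the G1 to S transition, 16 lay below 0 and 8 were 1.5-fold lower (median -0.50). Over all genes compared, these shares were 45.3% and 6.07%. CDC25A, the phosphatase that activates CDK2, was lowest at 18.4 TPM in low and 48.6 TPM in high glucose (-1.35). SKP2, the ubiquitin ligase subunit that targets p27, followed at 98.7 TPM in low and 211 TPM in high glucose (-1.09). The highest were E2F3 (20.03 TPM in low and 16.4 TPM in high glucose, 0.27), an activator E2F, and E2F4 (52.7 and 48.8 TPM, 0.11), known mainly as a repressor. All 23 mitosis genes also lay below 0, with a median of -0.48 and 7 past 1.5-fold. KIF20A (37.2 TPM in low and 71.9 TPM in high glucose) and BIRC5 (36.8 and 69.2 TPM) were lowest, and KIF23 (74.3 and 75.4 TPM) and CENPF (65.4 and 73.3 TPM) highest. No difference between these lists was tested.

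The promoters of the members were also searched for the E2F site, by which many of these genes are known to be switched on. Since the members were chosen by function, the share with a word does not bear on the glucose differences. The search was decided on with the values known. The windows run from 250 bases before to 50 bases after each RefSeq transcription start (GRCh38.p14), and 49 of the 56 genes had at least 1 window. The words searched were TTTCCCGC, TTTCGCGC, TTTGCCGC and TTTGGCGC, and on the other strand GCGGGAAA, GCGCGAAA, GCGGCAAA and GCGCCAAA. At least 1 such word was present in 24 of the 49 genes (49.0%), against 626 of 9869 other genes compared that had a window (6.34%). Counted by window, it was present in 25 of the members' 64 (39.1%), against 3.31% of all 35116. Words overlapped each other in 3 of the members' 64 windows. A match describes letters and not a working site, and the other genes were not matched to the members in base composition.

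Whole windows are shown for 3 of the genes with the lowest differences that hold a word and, beside them, for FEN1, which was also past 2-fold but whose window holds none of these words, and for ORC4, the highest member, whose windows hold none either. Each is written 5′ to 3′ along the gene's strand, and capitals mark the E2F words.
PCNA (chr20:5126573-5126872, minus strand): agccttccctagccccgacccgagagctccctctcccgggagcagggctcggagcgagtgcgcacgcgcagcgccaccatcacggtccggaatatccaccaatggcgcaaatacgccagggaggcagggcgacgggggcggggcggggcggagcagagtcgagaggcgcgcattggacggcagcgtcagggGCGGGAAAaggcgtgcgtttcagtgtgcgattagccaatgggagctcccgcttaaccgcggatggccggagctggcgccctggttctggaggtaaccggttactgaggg
UHRF1 (chr19:4909251-4909550, plus strand): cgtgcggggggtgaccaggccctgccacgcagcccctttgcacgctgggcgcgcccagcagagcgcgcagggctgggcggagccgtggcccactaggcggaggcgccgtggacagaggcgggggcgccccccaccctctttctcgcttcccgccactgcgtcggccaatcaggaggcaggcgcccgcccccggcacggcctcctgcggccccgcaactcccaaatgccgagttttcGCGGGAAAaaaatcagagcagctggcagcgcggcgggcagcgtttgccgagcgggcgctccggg
MCM6 (chr2:135876394-135876693, minus strand): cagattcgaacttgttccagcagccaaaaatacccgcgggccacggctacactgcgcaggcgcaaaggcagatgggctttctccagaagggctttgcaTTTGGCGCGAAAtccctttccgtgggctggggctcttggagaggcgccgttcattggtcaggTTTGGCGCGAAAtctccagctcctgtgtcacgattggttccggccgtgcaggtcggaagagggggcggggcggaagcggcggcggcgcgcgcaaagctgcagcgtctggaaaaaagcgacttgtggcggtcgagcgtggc
FEN1 (chr11:61792661-61792960, plus strand): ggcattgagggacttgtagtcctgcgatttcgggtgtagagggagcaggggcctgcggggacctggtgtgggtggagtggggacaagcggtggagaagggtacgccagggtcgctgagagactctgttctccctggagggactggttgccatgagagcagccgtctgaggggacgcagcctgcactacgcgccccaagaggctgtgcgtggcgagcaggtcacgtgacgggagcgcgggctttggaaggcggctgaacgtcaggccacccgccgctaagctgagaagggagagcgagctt
ORC4 (chr2:148021502-148021801, minus strand): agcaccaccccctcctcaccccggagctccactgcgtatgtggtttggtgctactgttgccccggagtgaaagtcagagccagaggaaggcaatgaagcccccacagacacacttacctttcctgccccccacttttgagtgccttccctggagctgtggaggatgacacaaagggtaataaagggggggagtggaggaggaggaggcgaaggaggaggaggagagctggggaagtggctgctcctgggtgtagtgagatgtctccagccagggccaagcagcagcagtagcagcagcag

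PCNA and UHRF1 each hold 1 word in the window shown, the same word GCGGGAAA, and both have other RefSeq starts. The MCM6 window holds 4 words as 2 overlapping pairs, each pair spelling TTTGGCGCGAAA. Short stretches of 24 bases are shown for the other genes that hold a word and were at least 1.5-fold lower, with capitals on the first word in the window and the coordinates of the stretch in the same build, so that the shared core can be compared.
GINS2 (chr16:85688970-85688993, minus strand): tcgccgtgGCGGGAAAacggcggc
MCM2 (chr3:127598405-127598428, plus strand): gaaccactTTTCGCGCgaaacctg
MCM3 (chr6:52284901-52284924, minus strand): atggtacgTTTCCCGCcaccgcgg
POLA2 (chr11:65261901-65261924, plus strand): gctcccggTTTCGCGCatgcgtgc
MCM7 (chr7:100101569-100101592, minus strand): ctcggaccGCGGGAAAcccggcgc
GINS3 (chr16:58392458-58392481, plus strand): ccccgggcGCGGGAAAcgagtttc
CLSPN (chr1:35769968-35769991, minus strand): ctggctggGCGGGAAAgcaagaac
GINS1 (chr20:25407670-25407693, plus strand): tttgttcgGCGCCAAAgcgcggag

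The word GCGGGAAA recurs in MCM7, GINS2, GINS3 and CLSPN, and MCM3 carries the same site read on the other strand, TTTCCCGC. TTTCGCGC recurs in MCM2 and POLA2, and GINS1 carries GCGCCAAA. Set against the expression values, the 24 genes with a word had a median difference of -0.44, and 11 of them were 1.5-fold lower. The 25 genes with windows but no word had a median of -0.26, and 6 of them were 1.5-fold lower, where 6.07% of all genes compared were. The ranges ran from -1.49 to 0.10 with a word and from -1.16 to 0.57 without, and so shared the stretch from -1.16 to 0.10. PCNA and UHRF1 lay below that stretch and ORC4 above it. The word was present in POLE, one of the 3 genes above 0, and none of these words was found in the windows of ASF1B, FEN1 and MCM10, which were past 2-fold. The 7 genes with no window in the table had a median of -0.52.

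**Figure D5:**
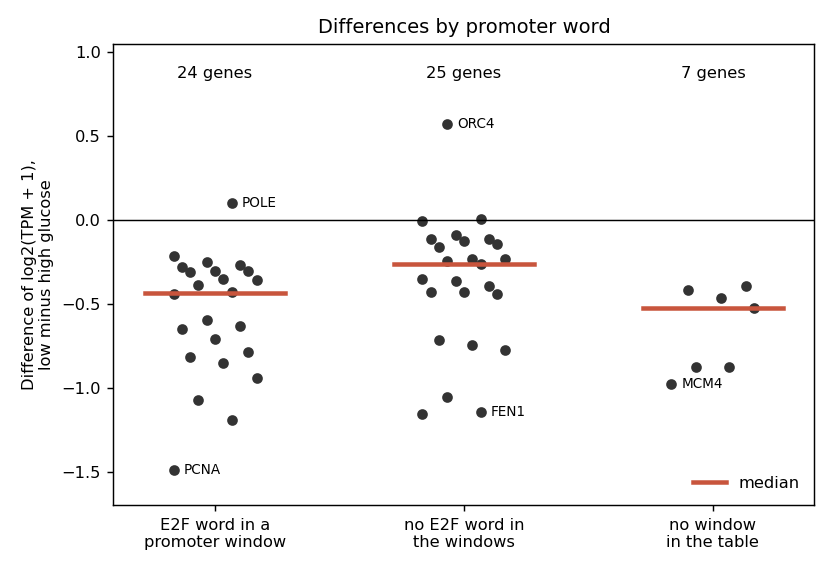
Low minus high glucose difference of log2(TPM + 1) for each gene (points; sideways position has no meaning) with an E2F word in a promoter window (24 genes), without one (25 genes) and with no window in the table (7 genes), red bars marking medians of -0.44, -0.26 and -0.52. The groups overlap widely, but PCNA and UHRF1 lie below every gene of the group without a word, and ORC4 lies above every gene with one.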

How the data were processed

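The authors deposited TPM per gene, named so per the file headers, with 2 decimals and hg19 intervals. The submitters' processing notes name cutadapt, RSEM 1.2.21 and hg19; no source used here names the aligner, the annotation or filters. TPM keeps no read number, so the depth is unknown and no counting interval is given. RSEM divides reads that match several genes between them.

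Low and high glucose were compared by log2(TPM + 1) for genes with a mean of at least 1 TPM, with rules of 2-fold and 1.5-fold. With 1 library per medium there is no test. Groups came from the treatment label, and no batch is named there. The members, lists, complexes and naming rule were chosen with earlier results of these data known. Full values were given for members past 2-fold, for the lowest and highest of each complex and for those nearest to the lines. Many other members also have full values. Other gene lists are named by their 2 lowest and 2 highest genes, with POLD4 and POLE4 also named. Cell type markers are given by sums and examples. Protein motifs, also planned, were not analysed here. The code of the comparison was checked on simulated data, with seeded changes larger than that of any member. This check does not show whether changes of the members' size exceed the spread between libraries. Alternatives were 4 scalings, 20 level groups, pseudocounts of 0.1 and 5, 2 filters and leaving out members in shared intervals. Promoter windows came from RefSeq. Calculations used Python 3.11.15, pandas 2.3.3 and NumPy 2.4.6.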

Additional observations from a re-analysis of the deposited data

How the results depend on the processing

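All 11 alternatives kept the median of the set below 0 (-0.49 to -0.36), and 52 of the 56 genes stayed below 0 under each alternative that kept them; the exceptions were ORC2, ORC4, ORC5 and POLE. The count of genes at least 2-fold lower ran from 4 to 8 and that of genes at least 1.5-fold lower from 17 to 21, apart from leaving out the 28 genes whose interval overlaps any other entry, which left 2 and 11 of 28 by its own construction. Many of those entries are small RNAs at 0 or copies listed with intervals of over 1 Mb. Leaving out only the 7 genes that overlap an expressed entry of at most 1 Mb, an alternative chosen after seeing the data, gave 6 and 19 of 49. Over all genes, the share at least 1.5-fold lower moved too, from 3.53% with no filter on level to 8.95% with trimmed-mean scaling. The number at least 2-fold lower ran from 79 with a pseudocount of 5 to 222 with a pseudocount of 0.1, of 13745 genes each. The median of the CDC45 and GINS group, -0.60, fell short of 1.5-fold without the 50 most abundant genes in the total (-0.57), with level group medians subtracted (-0.55) and with a pseudocount of 5 (-0.53), and the cause was not tested. The median of methylation maintenance, -0.75, became -0.30 when overlapping genes were left out, since only DNMT1 remained. No paired analysis was possible because each medium has 1 library.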

Other observations

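The promoter windows were also searched for CCAAT and its reverse complement ATTGG, the box bound by NF-Y, a factor that often acts beside E2F in cell cycle genes. It was present in 29 of the 49 members with a window (59.2%), against 43.2% of other genes compared. Counted by window, it was present in 53.1% of the members' 64, against 34.6% of all windows. The 29 genes with the box had a median difference of -0.43 and the 20 without it -0.31. At least 1.5-fold lower were 12 and 5 of them, against 6.07% of all genes compared. The 7 members with no window had a median of -0.52, and 3 of them were 1.5-fold lower. As with the E2F words, a match describes letters and not a working site. The other genes were again not matched to the members in base composition. In 1 window of a member a CCAAT box overlapped an E2F word.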
